A study of Mus musculus with 10 samples.

Results

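Genes that carry sodium, chloride and water across the lining of the lung were examined in lung RNA of mice fed a fish oil or a coconut oil diet. They were chosen by gene symbol for their known role, with earlier results of these data known. All 9 were found among the 24059 symbols of the count table: Scnn1a, Scnn1b and Scnn1g (epithelial sodium channel, ENaC), Atp1b1 (sodium pump), Slc12a2 and Cftr (chloride transport), and Aqp1, Aqp4 and Aqp5 (water channels). Female C57Bl/6 mice aged 14 weeks had been fed for 8 weeks a semipurified high-fat diet with 19% fat and added cholesterol, enriched either in n-3 polyunsaturated fatty acids from menhaden fish oil (FO, n = 5 mice) or in saturated fat from coconut oil with some olive oil (CO, n = 5 mice). Both diets contained corn oil, so neither group was on ordinary chow. The lungs were flushed with PBS and taken for RNA after airway reactivity had been tested, and each mouse was 1 RNA-seq sample.

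The fluid that lines airways and alveoli is set by salt transport, and water follows the salt. Sodium enters the cell through ENaC, a channel of α, β and γ subunits encoded by Scnn1a, Scnn1b and Scnn1g, and is moved out on the other side by the sodium pump (Na,K-ATPase), whose β1 subunit is Atp1b1. In the secreting direction, the cotransporter Slc12a2 (NKCC1) loads chloride into the cell and the channel Cftr lets it out towards the lumen. Aquaporins form water pores: Aqp5 is known from alveolar type 1 cells and submucosal glands, Aqp4 from the basolateral side of airway cells, and Aqp1 from the endothelium of lung vessels.

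These libraries were shallow, and this limits how much can be said of each gene. Totals per mouse lay between 229766 and 1124963 counts, and Rn45s, the precursor of ribosomal RNA, took 21.8% to 87.0% of them. That left 45177 to 473254 counts for all other genes, and the median mouse had 235781 on FO and 136211 on CO. Levels are given as CPM, the counts of a gene relative to the TMM-scaled size of its library. That size includes Rn45s, so CPM are lower than levels relative to the counts outside Rn45s. In FO mouse 1 the scaled size was 869028, against 250422 counts outside Rn45s. A mouse was taken to show a signal above 3 counts, which stood for 2.29 CPM in the deepest library and 19.9 CPM in the shallowest. This floor and all intervals from pooled counts cover counting error only.

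None of the 8 transport genes with any count passed the test between FO and CO. The test was the quasi-likelihood test of edgeR, and a gene was called at an unadjusted p-value under 0.05. Atp1b1 and Aqp1 passed edgeR's default filter on low counts, where 2.91% of 2438 genes were called (1.68% higher and 1.23% lower in FO) and 0 passed after adjustment. The other 6 were read from the same fit on all 14161 genes with any count, where 4.15% were called (2.58% higher and 1.57% lower in FO) and 0.00706%, the single gene S100a9, passed after adjustment. DESeq2 on the same genes had 0 passing after adjustment. Aqp5 had no count. DESeq2 and limma-voom also called 0 of the 8 at an unadjusted p-value under 0.05. The values of FO and CO mice overlapped for all 8 genes, whereas the groups did not overlap for 0.41% of the genes that passed the filter and 0.346% of those with any count. By exact permutation of the mice, the smallest p-value possible with 5 against 5 was 0.0079, and the lowest among the 8 was 0.476.

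**Figure D1:**
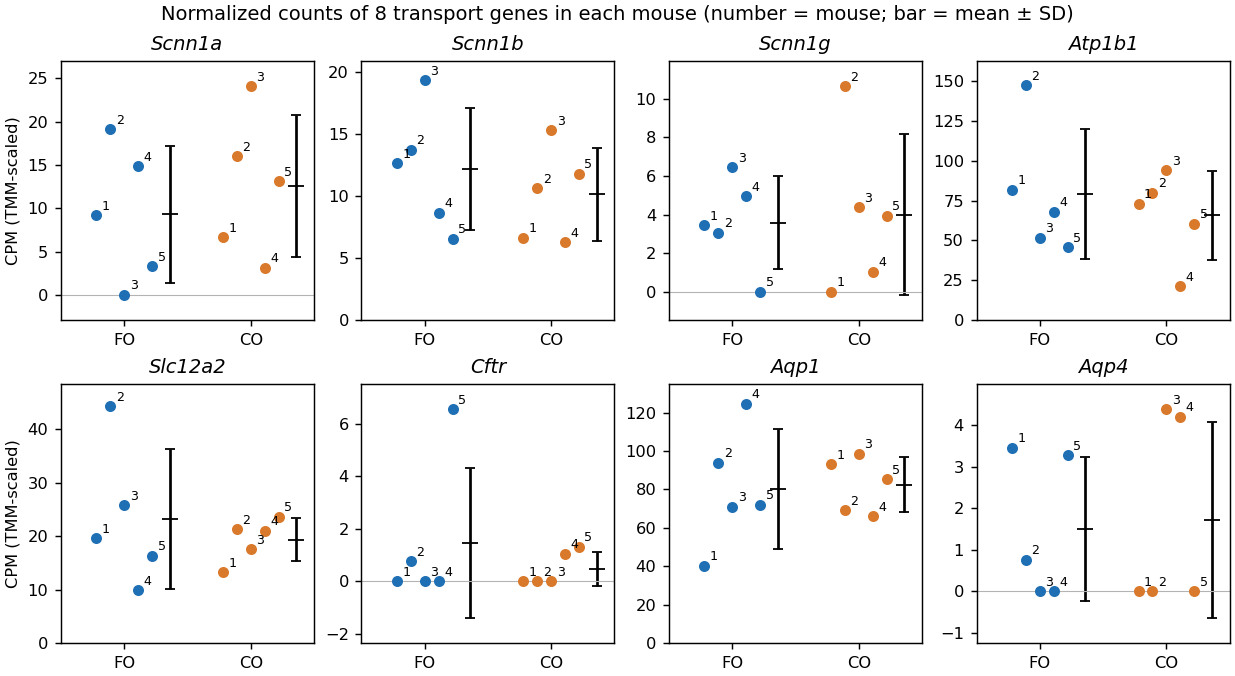
Normalized counts (CPM, vertical axis, linear) of 8 transport genes in each of 5 FO (blue) and 5 CO (orange) mice, with the number of the mouse beside its point and the mean ± SD as a bar. FO and CO points overlap in every panel. FO mouse 2 is the highest of all mice for Atp1b1 (147.5 CPM) and Slc12a2 (44.3 CPM).

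The 3 ENaC subunits were detected at low level in both diets, and none passed the test. Scnn1a, the α subunit (chromosome 6, 125314271 to 125344943, plus strand, GRCm38), had 8, 25, 0, 12 and 1 counts in FO mice 1 to 5 and 1, 3, 11, 3 and 10 counts in CO mice 1 to 5. After scaling, these were 9.28 ± 7.90 CPM (SD, n = 5) in FO and 12.6 ± 8.20 CPM in CO. The highest values were 24.1 CPM in CO mouse 3 and 19.1 CPM in FO mouse 2, so high and low mice were found on both diets. The fitted log2 fold change (FO minus CO) was -0.01 with a standard error of 0.53 and a 95% interval from -1.03 to 1.02 (edgeR, p = 0.991, adjusted p = 0.999; two-sided exact permutation test, p = 0.476).

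Scnn1b, the β subunit (chromosome 7, 121865038 to 121918728, plus strand), was the only ENaC gene with a count in every mouse. It had 11, 18, 3, 7 and 2 counts in FO mice 1 to 5 and 1, 2, 7, 6 and 9 counts in CO mice 1 to 5. Its level was 12.2 ± 4.96 CPM in FO and 10.1 ± 3.78 CPM in CO, and 1 FO mouse, mouse 3 with 19.4 CPM from 3 counts, was above the highest CO mouse (15.3 CPM). The log2 fold change of 0.21 ± 0.55 (SE) had an interval from -0.86 to 1.29 (edgeR, p = 0.698, adjusted p = 0.995; exact permutation test, p = 0.508).

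Scnn1g, the γ subunit, lies near Scnn1b on the same strand of chromosome 7 (121734420 to 121768482) and overlaps the RefSeq gene Gm36848. It had 3, 4, 1, 4 and 0 counts in FO mice 1 to 5 and 0, 2, 2, 1 and 3 counts in CO mice 1 to 5. Only 2 of the 10 mice, both FO, were above the floor. The summed counts, 12 in FO and 8 in CO, gave a depth-scaled ratio of FO to CO of 1.09 with a 95% counting interval from 0.410 to 3.08, and the exact permutation p-value was 0.984.

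The β subunit took the largest share of ENaC counts per length on both diets. Divided by the merged length of their exons, the summed counts of the α, β and γ subunits made up 36.2%, 50.7% and 13.1% of ENaC in FO and 35.8%, 50.1% and 14.1% in CO. The sums rest on 99 counts in FO, of which 47 came from FO mouse 2, and 61 in CO. When each mouse was given equal weight the shares were 27.8%, 57.4% and 14.8% in FO and 37.0%, 46.8% and 16.2% in CO, so the closeness of the diets holds for the summed counts and not for the means over mice. The shares were not tested.

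Atp1b1, the β1 subunit that brings the sodium pump to the cell membrane, was, with 476 counts over all mice, second among the members only to Aqp1 with 492. The gene lies on chromosome 1 (164437099 to 164458355, minus strand) and overlaps Nme7. It had 71, 193, 8, 55 and 14 counts in FO mice 1 to 5 and 11, 15, 43, 20 and 46 counts in CO mice 1 to 5. These stood for 81.7, 147.5, 51.6, 67.9 and 45.8 CPM in FO and 73.1, 79.9, 94.2, 21.0 and 60.4 CPM in CO. The other 4 FO mice fell within the range of the CO mice, FO mouse 2 was above it, and CO mouse 4 was the lowest of all. The group levels were 78.9 ± 40.8 CPM and 65.7 ± 27.8 CPM. The log2 fold change was 0.42 with a standard error of 0.38 and an interval from -0.37 to 1.21, or from 0.772-fold to 2.32-fold (edgeR, p = 0.281, adjusted p = 0.998; exact permutation test, p = 0.587). Without FO mouse 2 it was 0.06.

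Per kilobase of exon, Atp1b1 (23.5 ± 10.9 CPM per kilobase over 10 mice) and the β3 subunit of the pump, Atp1b3 (22.6 ± 4.59), had close mean levels. Atp1b3 was at 49.8 ± 3.17 CPM in FO and 58.2 ± 14.7 CPM in CO (log2 fold change -0.20, 95% interval -0.73 to 0.33, edgeR, adjusted p = 0.998).

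Slc12a2, the cotransporter that brings sodium, potassium and chloride into the cell (chromosome 18, 57878512 to 57946821, plus strand), had 17, 58, 4, 8 and 5 counts in FO mice 1 to 5 and 2, 4, 8, 20 and 18 counts in CO mice 1 to 5. Its level was 19.6, 44.3, 25.8, 9.88 and 16.4 CPM in the FO mice and 13.3, 21.3, 17.5, 21.0 and 23.6 CPM in the CO mice. FO mice 2 and 3 were above every CO mouse and FO mouse 4 was below every CO mouse, so the FO group was the more spread (23.2 ± 13.1 against 19.3 ± 4.03 CPM). The log2 fold change of 0.27 ± 0.41 (SE) had an interval from -0.54 to 1.09 (edgeR, p = 0.505, adjusted p = 0.982; exact permutation test, p = 0.754). Without FO mouse 2 the direction turned, to -0.26.

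Cftr, the chloride channel mutated in cystic fibrosis (chromosome 6, 18170687 to 18322770, plus strand, overlapping Gm15595), was at the limit of detection. There were 1 and 2 counts in FO mice 2 and 5, 1 count each in CO mice 4 and 5, and none in the other 6 mice. No mouse was above the floor of 3 counts, so no fold change is given (edgeR, p = 0.814; exact permutation test, p = 0.881). A difference in Cftr was not detectable at this depth.

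Aqp1 was the best measured water channel, and its mean levels on the diets were close. It lies on chromosome 6 (55336299 to 55348555, plus strand) and had 35, 123, 11, 101 and 22 counts in FO mice 1 to 5 and 14, 13, 45, 63 and 65 counts in CO mice 1 to 5. The levels were 40.3, 94.0, 71.0, 124.8 and 72.0 CPM in FO and 93.0, 69.2, 98.6, 66.1 and 85.3 CPM in CO. Both the lowest and the highest mouse were on FO. Group levels were 80.4 ± 31.3 CPM and 82.5 ± 14.3 CPM, and the log2 fold change was -0.01 ± 0.29 (SE) with an interval from -0.61 to 0.59 (edgeR, p = 0.982, adjusted p = 0.998; exact permutation test, p = 0.762). The interval leaves room for changes from 0.657-fold to 1.51-fold. Relative to the summed counts of 10 endothelial markers, Aqp1 was at 12.9 ± 3.92 per 100 counts in FO and 13.1 ± 2.91 in CO (exact permutation test, p = 0.865, also after adjustment over 3 ratios to marker counts, chosen after the data were seen).

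Aqp4 (chromosome 18, 15389394 to 15410982, minus strand, overlapping A830021F12Rik) had 3, 1, 0, 0 and 1 counts in FO mice 1 to 5 and 0, 0, 2, 4 and 0 in CO mice 1 to 5. Only CO mouse 4 was above the floor. From 5 counts in FO and 6 in CO, the depth-scaled ratio of FO to CO was 0.607 with a counting interval from 0.146 to 2.39 (exact permutation test, p = 1), so neither a rise nor a fall of 2-fold could be told at this depth.

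Aqp5 (chromosome 15, 99591028 to 99594829, plus strand, overlapping Gm34765) was listed at 0 in all 10 mice. This 0 cannot be read as an absent transcript, since every gene of the chromosome was at 0. Of the 22549 symbols matched to RefSeq positions, 848 lay on chromosome 15, 705 of them protein-coding, and none had a count in any mouse. On the other chromosomes 49.3% (X) to 68.6% of symbols had a count. The markers of type 1 cells, where Aqp5 is normally found, were well detected, with 10 of 10 having counts. Aqp5 was therefore not measured in this table, and no limit on its level is given.

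**Figure D2:**
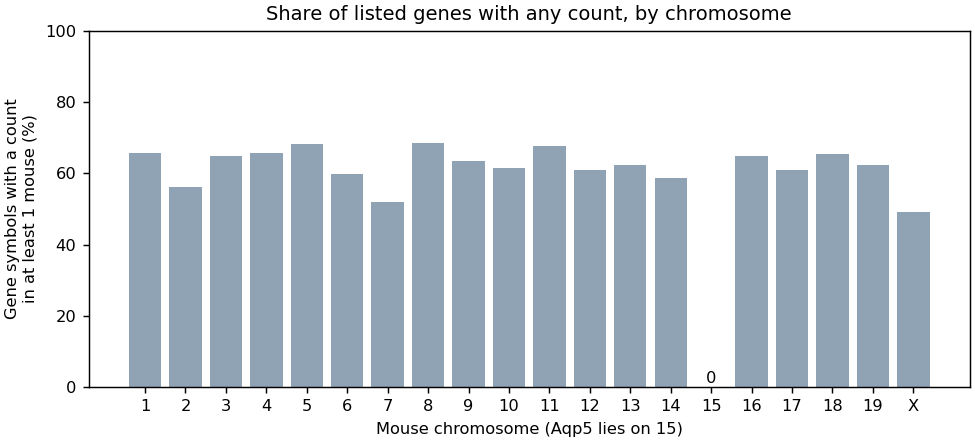
Share of gene symbols with a count in at least 1 mouse (percent, vertical axis) for each mouse chromosome (horizontal axis). The share is 0 for chromosome 15, where Aqp5 lies, and between 49.3% and 68.6% for the others.

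The levels of the members spanned a wide range when divided by exon length. Over 10 mice, Aqp1 was at 31.0 ± 8.75 and Atp1b1 at 23.5 ± 10.9 CPM per kilobase. A gap followed, with Scnn1b at 4.24 ± 1.63, Scnn1a at 2.65 ± 1.88, Slc12a2 at 1.95 ± 0.859 and Scnn1g at 1.27 ± 1.07 CPM per kilobase. Aqp4 (0.258 ± 0.313) and Cftr (0.125 ± 0.261) were lowest.

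Neighbours in this order were compared within mice by two-sided exact paired permutation tests, chosen after the data were seen and adjusted over 7 pairs. Atp1b1 was above Scnn1b in 10 of 10 mice, with a ratio of means of 5.53 (exact p = 0.00195, adjusted 0.0137). Scnn1b was above Scnn1a in 8 of 10 mice, with a ratio of 1.60 (exact p = 0.0117, adjusted 0.0410). With the longest transcript in place of merged exons this ratio was 1.38, and the step was not tested on that length. The step from Scnn1g to Aqp4, a ratio of 4.92, did not pass after adjustment (exact p = 0.0234, adjusted 0.0547). The other neighbours did not differ beyond their spread: Aqp1 was above Atp1b1 in 8 of 10 mice (exact p = 0.0801, adjusted 0.140), and the adjusted exact p-values for Scnn1a over Slc12a2, Slc12a2 over Scnn1g and Aqp4 over Cftr were 0.283, 0.180 and 0.255. The place of Slc12a2 depends on the length used, because with the longest transcript in place of merged exons its level was 3.26 and it stood above Scnn1a (3.13).

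**Figure D3:**
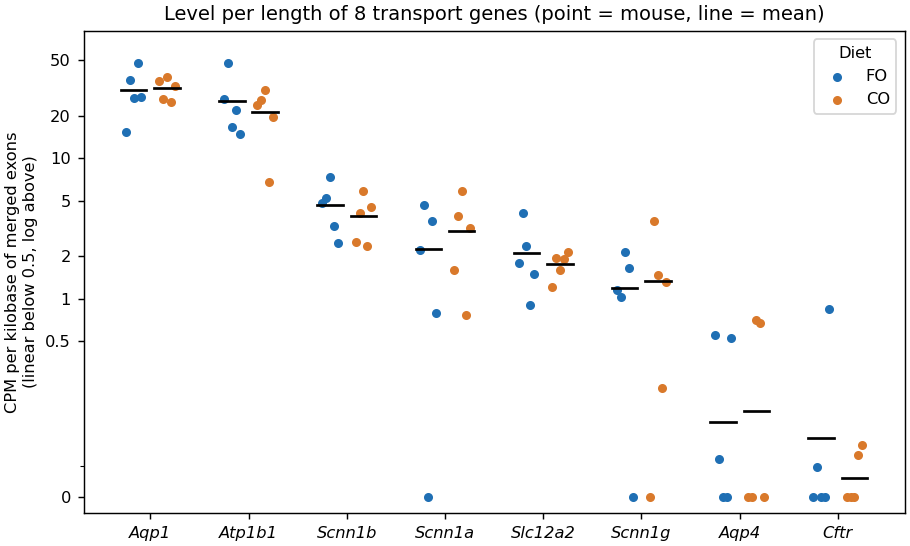
Level per length (CPM per kilobase of merged exons; linear below 0.5 and logarithmic above) of 8 transport genes in 5 FO (blue) and 5 CO (orange) mice, with lines at the group means. The group means of Aqp1 and Atp1b1 stand above those of the ENaC subunits and Slc12a2, and Aqp4 and Cftr lie near 0 on both diets.

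Other genes of epithelial salt and water transport were mostly too low to test well. Of a list of 85 such genes, 66 had a count, 4 were on chromosome 15 and 15 others were at 0, among them Foxi1, a transcription factor of ionocytes, and Slc9a3, a sodium-proton exchanger. Of the 10 that passed the default filter 0 were called by edgeR, DESeq2 or limma-voom, 4 had a positive and 6 a negative log2 fold change, and their median was -0.06 against 0.00 for all genes tested. Among all 66, edgeR called 2, both higher in FO, beside 4.15% of all 14161 genes with any count (2.58% higher in FO). The median log2 fold change of the 66 was 0.11 against 0.05 for all genes with any count. The 8 members in that fit had a median of 0.12, with 6 positive and 2 negative.

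Among the regulators of ENaC, Wnk1 and Nedd4 had the highest levels. Wnk1, a kinase that acts on SLC12 cotransporters and ENaC, was at 282.0 ± 35.1 CPM in FO and 330.9 ± 100.2 CPM in CO (log2 fold change -0.25, interval -0.72 to 0.22, edgeR, adjusted p = 0.998). Nedd4, a ubiquitin ligase, was at 222.0 ± 61.1 and 243.9 ± 87.9 CPM (log2 fold change -0.10, edgeR, adjusted p = 0.998). Spint2, an inhibitor of the serine proteases that cleave ENaC, was 1 of the 2 genes called, and is named here after its values were seen. It had 14, 9, 2, 8 and 2 counts in FO mice 1 to 5 and 1, 1, 1, 5 and 1 counts in CO mice 1 to 5, or 10.5 ± 4.07 against 4.14 ± 2.28 CPM. After scaling, 4 of 5 FO mice were above the highest CO mouse and FO mouse 5 was below it. The log2 fold change was 1.48 ± 0.71 (SE; edgeR, p = 0.0301, adjusted p = 0.905; two-sided exact permutation test, p = 0.0159), which did not pass adjustment over all genes. In 4 of 5 CO mice and in FO mice 3 and 5 the gene was below the floor of 3 counts. The call was lost with DESeq2, with library size alone, with the replicate block, without FO mouse 1 (log2 fold change 1.18), CO mouse 3 (1.39) or CO mouse 5 (1.20), and without FO mouse 2 and CO mouse 5 together, and over the alternatives the log2 fold change lay between 0.90 and 1.92.

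The other gene called was Atp1b2, the β2 subunit of the pump, with 4 counts in FO and 0 in CO (edgeR, p = 0.0392, adjusted p = 0.905; exact permutation test, p = 0.167). No mouse was above the floor, and no fold change is given. Among other alternatives, DESeq2, limma-voom, library size alone and the replicate block did not call it. The call was also lost without FO mouse 3, FO mouse 4 or any single CO mouse, and without FO mouse 2 and CO mouse 5 together. It was kept without FO mouse 1, 2 or 5.

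The other groups of the list held no gene past the threshold. For anion and bicarbonate transport, the scaffold protein Slc9a3r2 was at 75.8 ± 20.9 CPM in FO and 56.5 ± 9.58 in CO (log2 fold change 0.38, interval -0.18 to 0.94, edgeR, adjusted p = 0.998), and the sodium bicarbonate cotransporter Slc4a7 had a log2 fold change of 0.17 (edgeR, adjusted p = 0.995). The potassium channel Kcnk2 was at 43.8 ± 17.3 and 44.0 ± 30.1 CPM (log2 fold change 0.01, edgeR, adjusted p = 0.998), and Kcnj15 had a log2 fold change of 0.45 (edgeR, adjusted p = 0.948). Only 3 of 8 other aquaporins had a count, led by the glycerol channel Aqp7 with 10 counts in FO and 11 in CO (edgeR, adjusted p = 0.959) and Aqp3 with 2 and 4. P2rx4, an ATP-gated cation channel, had a log2 fold change of 0.02 (edgeR, adjusted p = 0.999).

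**Figure D4:**
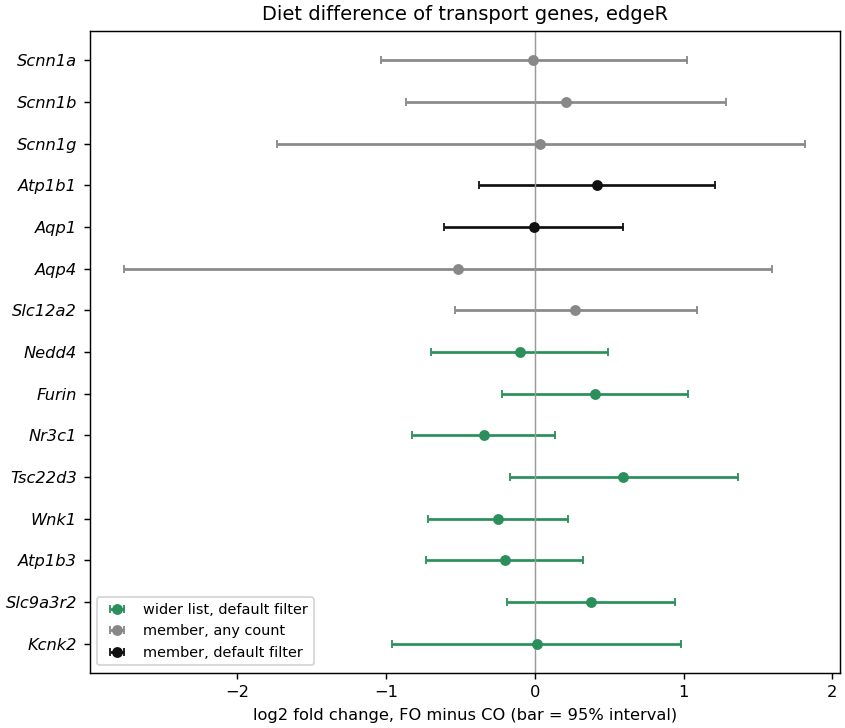
Log2 fold change (FO minus CO, horizontal axis) with 95% intervals from edgeR for 7 transport genes, from the default filter (black) or from all genes with any count (grey), and for 8 genes of the wider list that passed the filter (green). All intervals include 0, and those of Scnn1g and Aqp4 are the widest.

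The cells that carry these genes were represented in both groups. All 10 type 1, 10 type 2, 8 club and 10 endothelial markers had counts, and their summed levels overlapped between the diets: 1065 to 1549 CPM in FO and 981 to 3211 CPM in CO for type 1 cells, 1850 to 3861 and 1142 to 3141 CPM for type 2 cells, 1549 to 2484 and 1235 to 3090 CPM for club cells, and 476 to 828 and 525 to 710 CPM for endothelium. Summed levels of 7 ciliated cell markers were 484 to 708 CPM in FO and 527 to 1124 CPM in CO. Most of this sum was Sec14l3 alone, with 506.2 of a mean of 563.1 CPM in FO and 659.9 of 735.1 CPM in CO. In whole lung, fewer cells of a type and less RNA per cell cannot be told apart. Per 100 counts of type 2 markers, the ENaC subunits had 0.989 ± 0.375 counts in FO and 1.30 ± 0.569 in CO (exact permutation test, p = 0.389, adjusted 0.865), and per 100 counts of club markers, Slc12a2 had 1.25 ± 0.932 and 0.999 ± 0.627 (exact permutation test, p = 0.619, adjusted 0.865).

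Some markers did pass the unadjusted threshold. With the default filter these were Akap5 of the type 1 list, lower in FO (215.9 ± 22.5 against 410.6 ± 263.9 CPM, edgeR, adjusted p = 0.998), and the neutrophil protein S100a9, higher in FO (74.6 ± 52.0 against 13.8 ± 5.19 CPM, edgeR, adjusted p = 0.377). In the fit of all genes with any count, from which the low transport genes were read, S100a9 passed after adjustment as well (log2 fold change 2.27, edgeR, adjusted p = 1.99e-05). That fit rested on a spread shared across genes and gave little weight to the spread of a single gene between mice. With DESeq2, 0 genes passed after adjustment on the same genes and 1 on the filtered genes. In that fit 3 of 8 leukocyte markers (S100a9, S100a8 and Cd68), 2 of 8 cardiac muscle markers (Tnni3 and Tnnt2) and the red blood cell marker Alas2 were called higher in FO, 2 of 10 type 1 markers (Akap5 and Cldn18) and 1 of 7 ciliated cell markers (Ccdc113) were called lower, and of 8 club cell markers 1 was called higher (Cldn10) and 1 lower (Scgb3a1). No type 2, endothelial or mesothelial marker was called in either fit. The summed level of the leukocyte list was 92.5 to 313.0 CPM in FO and 46.5 to 106.3 CPM in CO. Its mean was 179.9 CPM in FO, of which S100a9 held 74.6 and S100a8 55.1. In CO the mean was 71.2 CPM, with 13.8 and 19.0 from these genes. The other leukocyte markers were mixed and, apart from Cd68, not called. Marco had a log2 fold change of 1.41, Ptprc of 0.08 and Chil3 of -0.17, and Cd3e and Cd79a were under 1 CPM. The summed level of the cardiac list, all 8 detected, was 58.9 to 241.5 CPM in FO and 26.6 to 166.7 CPM in CO. Red blood cell markers summed to 45.2 to 69.2 CPM in FO and 2.1 to 76.7 CPM in CO, with the 6 globin genes listed at 0 in all mice, and the 4 mesothelial markers summed to at most 21.3 CPM. The part of these cells in the values of the transport genes was not tested.

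Across the 10 mice, the genes whose log2 CPM was most like that of Atp1b1, of 2437 compared, were Nid1, a basement membrane protein (Pearson r = 0.875), the ephrin Efnb2 (r = 0.872) and Phip (r = 0.866). Those most like Aqp1 were Podxl, a surface protein of vascular endothelium (r = 0.886), Sparcl1 (r = 0.787) and Arhgef3 (r = 0.781). These are the highest of many values in libraries that differ in depth and are given as a description.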

How the data were processed

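Lung RNA of 10 mice was sequenced as single-end reads from TruSeq RNA v2 or riboZero libraries; which mouse had which is not given in the sources used here. The authors deposited raw counts per gene symbol, without normalization. The submitters' processing notes name STAR 2.4.0f1, SAMtools 0.1.19, HTSeq and mm10. Annotation and strand setting are not given, so reads of overlapping genes may be split or shared.

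Members and lists were chosen with earlier results of these data known. Counts were tested, FO minus CO, two-sided, with edgeR 4.0.16 (R 4.3.3): TMM scaling, default filter (minimum count 10, minimum total 15), quasi-likelihood test, called at the study's unadjusted p-value under 0.05, with Benjamini-Hochberg adjustment over all genes tested. Genes failing the filter were read from the fit of all genes with any count. Exact permutation tests used log2 CPM with a prior count of 2. Positions are RefSeq GRCm38.p6; exon lengths are GENCODE M21. No 2 mice had identical counts.

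Named genes were the 9 members, list genes past the threshold with the default filter, or with any count and at least 50 counts, the 2 most abundant per list group, and the 3 genes most like each filtered member. Some genes this rule names are not reported here. Spint2, Atp1b2, Atp1b3, Foxi1, Slc9a3 and single cell markers are named outside this rule, after a look at their values. The 3 ratios, the tests of neighbouring levels and the permutation tests of list genes were also chosen with the values in view. Alternatives were DESeq2 1.42.0, limma-voom (limma 3.58.1), other scaling, filters and prior counts, the replicate block, and mice left out. The edgeR, DESeq2 and limma fits were tested on simulated data.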

Additional observations from a re-analysis of the deposited data

Results flagged for a closer look

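Dixon's test for a sample far from its group (critical ratio 0.71 for 5 mice) was applied to 22 groups of values, and 2 groups had such a sample. About 1.1 would be singled out by chance if the groups were independent and normally spread. Groups with counts near 0 and ties, and ratios that reuse the members, do not meet this, so 1.1 is only a rough guide. Cftr in the FO group had 6.55 CPM in mouse 5, from 2 counts, while the others had 0 to 0.764 CPM. The counts of Slc12a2 per 100 counts of club cell markers were 2.86 in FO mouse 2 and 0.581 to 1.23 in the other FO mice. FO mouse 2 also had the largest share of Malat1 counts, 8.53% of the counts outside Rn45s, against at most 1.05% in 8 other mice and 6.15% in CO mouse 5. The part of this in the values of Slc12a2 was not tested.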

How the results depend on the processing

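The limit of these results is depth: 6 of the 9 members were too low for the default filter and 1 was not measured. No member was called in any of 21 alternatives, and the lowest member p-value in any of them was 0.140 (Atp1b1, all genes with any count). The number of genes called, 71 (41 higher and 30 lower in FO), became 36 (1 and 35) with library size alone, where the median of all genes moved to -0.55 on the log2 scale, 117 with limma-voom, 587 with any count and 15 of 633 with at least 10 counts in every mouse. It ranged from 54 to 154 when single mice were left out, the latter without FO mouse 2. Of the wider list, 2 genes were called, but 0 with DESeq2, 0 with the replicate block and 0 of 4 with at least 10 counts in every mouse. Between 1 and 6 were called without single mice, with 6 without FO mouse 2. Slc12a2 moved from 1.95 to 3.26 CPM per kilobase with the longest transcript.

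Directions of members, none called, turned as follows, and the cause was not tested. The log2 fold change of Scnn1g was -0.061 with DESeq2. With library size alone, Scnn1b was at -0.19, Scnn1g at -0.34 and Slc12a2 at -0.21. With limma-voom, Scnn1g was at -0.24 and Slc12a2 at -0.012. Aqp1 was at 0.028 with any count, Scnn1a at 0.035 without Rn45s, and Slc12a2 at -0.16 without FO mouse 2 and CO mouse 5. The permuted difference of Aqp4 was 0.072 with a prior count of 0.5. Over fits without single mice the log2 fold change ranged from -0.345 to 0.47 for Scnn1a, 0.04 to 0.45 for Scnn1b, -0.30 to 0.42 for Scnn1g, 0.06 to 0.63 for Atp1b1, -0.28 to 0.18 for Aqp1, -1.24 to 0.23 for Aqp4 and -0.26 to 0.52 for Slc12a2. Without single mice 16 fold changes turned and 54 kept their direction, and under the other alternatives 9 turned and 55 kept it.

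The replicate numbers are shared by different animals. Same-numbered mice deviated from their group means with a mean correlation of -0.12 (-0.41 to 0.03 over 5 pairs), and 0 of 10 mice correlated best with its own number. With the replicate number as a block 55 genes and no member were called, and Atp1b1 was at 0.36.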
